A study of Mus musculus with 2 samples.

Results

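Krt5, Krt12, Krt14 and Krt15 are 4 keratin genes of the ocular surface epithelium, taken by name from the 31053 genes of the deposited matrix. They were described over sorted epithelial cells of mouse corneas by library, by cell type rule and by cell cycle state. The mice carried the CycB1-GFP reporter, which marks cells that hold Cyclin B1, and only live cells positive for green fluorescent protein were collected, so all cells share the reporter and the gate. The labels give 1 group of 2 replicates and no strain, age, sex or number of animals. The study addresses how stem cell fate is regulated in the ocular epithelium. Barcodes ended in 1 of 2 numbers, read here as library 1 and library 2. The labels do not tie these numbers to the replicate numbers, and nothing says whether the libraries came from separate animals. P-values therefore set a difference between cell classes against an estimate of its spread between these 2 libraries, which are a block in the fits. That spread is estimated with help from all genes, so a gene can be called although its own 2 library values differ. The spread may be technical.

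Keratins build the intermediate filaments of epithelial cells, and each filament pairs a type I with a type II chain. Krt5 is a type II keratin of basal epithelial layers, and Krt14 and Krt15 are type I keratins of basal layers. Krt12 is the type I keratin typical of corneal epithelium. The cornea borders the conjunctiva at the limbus, the zone where corneal epithelial stem cells are thought to reside. RNA was counted from the 3′ end as unique molecular identifiers (UMIs), with 1 UMI per captured molecule, so that levels do not scale with gene length. Levels are given as CPM, the gene's UMIs scaled to 1000000 UMIs of the sum.

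By GENCODE M21 (GRCm38), Krt5 (ENSMUSG00000061527) spans 101707070 to 101712898 of chromosome 15 with 9 exons, read from the minus strand. Krt12 (ENSMUSG00000020912) spans 99415666 to 99422259 of chromosome 11. Krt15 (ENSMUSG00000054146, 100131758 to 100135928) and Krt14 (ENSMUSG00000045545, 100203162 to 100207548) share that chromosome. The 3 type I genes have 8 exons each and the same strand as Krt5. Krt5 overlaps the annotated gene Gm44323 and Krt12 overlaps A830036E02Rik, and reads in the overlaps may not be told apart. In its last 500 bases, Krt14 shared 9.53% of its stretches of 50 bases with Krt16 or Krt17 transcripts, and the other 3 members shared none, so Krt14 values carry some uncertainty from these relatives.

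The promoters of the main corneal type I keratin and of its type II partner are shown because Krt12 is the corneal member of the pair and differed more between corneal-type and limbal-type cells than Krt5 did, as described below. They are the 250 bases before the gene start from RefSeq (GRCm38.p6), 5′ to 3′ on the minus strand, at chr11:99422260-99422509 for Krt12 and chr15:101712906-101713155 for Krt5. Capitals mark matches on either strand to the 3 motifs searched, which were the TATA box letters TATAAA, the letters CACCC of the Krueppel-like factor motif, and the homeobox-type letters CTAATC. No matches overlapped.
Krt12: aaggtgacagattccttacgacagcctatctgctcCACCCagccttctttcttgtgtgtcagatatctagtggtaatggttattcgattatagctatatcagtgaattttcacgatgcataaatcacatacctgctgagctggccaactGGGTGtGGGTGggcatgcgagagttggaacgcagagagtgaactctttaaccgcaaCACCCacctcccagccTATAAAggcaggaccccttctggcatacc
Krt5: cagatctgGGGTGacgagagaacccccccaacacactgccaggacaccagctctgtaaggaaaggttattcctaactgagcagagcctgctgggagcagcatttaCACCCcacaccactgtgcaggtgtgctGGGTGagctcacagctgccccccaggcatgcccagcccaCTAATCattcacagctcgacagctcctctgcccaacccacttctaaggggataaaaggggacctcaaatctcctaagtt
The Krt12 window held 1 match to the first motif, 4 to the second and 0 to the third. The Krt5 window held 0, 3 and 1 in that order. Of 32851 promoter windows of the same length, 12.4% held the first, 52.0% the second and 5.71% the third. A match is a stretch of letters and not a measured binding site.

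Of 6752 barcodes, 6188 cells had at least 500 genes and under 20% mitochondrial UMIs, with 3187 in library 1 and 3001 in library 2. Their median depth was 5571 and 5886 UMIs, and 5 barcode sequences occurred in both libraries. Markers of stromal keratocytes, melanocytes and endothelium summed to at most 5.79 CPM for any list in either library, and 3 of 4 listed goblet genes (Muc5ac, Spdef and Tff1) were at 0. The fourth, Agr2, was at 45.5 and 86.6 CPM in the conjunctival-type cells defined below, with a UMI in 21.6% and 31.1% of them, at 27.8 and 39.1 CPM in limbal-type cells and at 3.41 and 6.54 CPM in corneal-type cells. The libraries differed in immediate early gene RNA (9 genes, 6683 CPM in library 1 and 2896 CPM in library 2) and in interferon-response RNA (7 genes, 135 and 462 CPM).

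The 4 keratins together made up 2.51% of all UMIs in library 1 and 2.60% in library 2. Krt5 was at 5146 and 5409 CPM, Krt12 at 11115 and 12597, Krt14 at 7112 and 4769, and Krt15 at 1713 and 3233. Krt12 was the gene with the second and the third highest count in the libraries, and Krt5 ranked 16 in both. Krt14 ranked 7 and 22, and Krt15 ranked 108 and 46. Krt5 and Krt12 were each somewhat higher in library 2, whereas Krt14 was higher in library 1 and Krt15 was higher in library 2 by the widest margin. With 1 sample per library, these differences have no test.

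Cells were assigned by markers outside the 4 members. Corneal-type cells had at least 10 UMIs of Aldh3a1, a crystallin-like enzyme of corneal epithelium, and met neither other rule. Limbal-type cells had at least 2 UMIs of Gpha2, a limbal marker. Conjunctival-type cells had at least 3 UMIs of Krt4, Krt13 and Krt19 together. Corneal-type cells numbered 2012 and 1598 in the libraries, limbal-type cells 460 and 641, and conjunctival-type cells 241 and 225. A further 128 and 268 cells met both the limbal and the conjunctival rule and stayed out of the tests, and 346 and 269 cells met none.

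The names held in part against markers that the rules did not use. Tkt, a corneal crystallin, stood at 6305 and 8704 CPM in corneal-type cells against 2504 and 2933 in limbal-type and 2182 and 2143 in conjunctival-type cells. Pax6 differed less (535 and 471 CPM in corneal-type, 439.95 and 371 in limbal-type, 464 and 408 in conjunctival-type cells). Clu, another listed corneal marker, was lowest in corneal-type cells of the 3 types, at 193 and 80.9 CPM against 198 and 91.7 in limbal-type and 217.5 and 156 in conjunctival-type cells. Cd63 was at 107 and 121 CPM in limbal-type against 10.4 and 2.83 in corneal-type cells, but Gas1, another listed limbal marker, was higher in corneal-type cells (193 and 202 against 122 and 94.2 CPM). Krt8 was highest in conjunctival-type cells, at 107 and 341 CPM, although only 19.5% and 42.7% of them held a UMI of it. Conjunctival-type cells were a mixture, described after the levels.

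Krt12, the corneal type I keratin, was highest in corneal-type cells, at 14132 CPM in library 1 and 17785 in library 2. It stood at 10771 and 12495 CPM in conjunctival-type cells and at 3479.6 and 4728 in limbal-type cells. The 3 cell types kept this order in both libraries and their values did not overlap. With 2 libraries such a separation says little alone, and its share over all genes is not given here. In limbal-type against corneal-type cells Krt12 fell by 1.97 on the log2 scale (SE 0.068, edgeR adjusted p = 1.6e-11). In conjunctival-type against corneal-type cells it fell by 0.38 (SE 0.066, edgeR adjusted p = 0.00037), and in limbal-type against conjunctival-type cells by 1.59 (edgeR adjusted p = 1.1e-10). Of all genes tested, 20.4% were called in limbal-type against corneal-type cells (11% higher, 9.41% lower), 25.6% in conjunctival-type against corneal-type cells (15.2% and 10.3%) and 21.9% in limbal-type against conjunctival-type cells (9.69% and 12.2%). The smaller difference between conjunctival-type and corneal-type cells lost its call without the library block (edgeR adjusted p = 0.23), with stricter marker thresholds (0.057) and when cells of both rules were counted as conjunctival-type (0.093). In that last setting its size went from -0.38 to -1.13. The limbal against conjunctival difference went there from -1.59 to -0.86 and also lost its call (edgeR adjusted p = 0.20). Over all 13 alternatives the first difference ranged from -1.14 to -0.38 and the second from -2.31 to -0.86.

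Krt15, a basal type I keratin, was lowest in corneal-type and highest in conjunctival-type cells in both libraries. It was at 285 and 271 CPM in corneal-type cells, 3247 and 4619 in limbal-type cells, and 5735 and 10881 in conjunctival-type cells. Every limbal-type and conjunctival-type value lay above every corneal-type value, a separation with the same limit as for Krt12. Krt15 rose by 3.77 on the log2 scale in limbal-type against corneal-type cells (SE 0.39, edgeR adjusted p = 0.0323) and by 4.89 in conjunctival-type against corneal-type cells (SE 0.41, edgeR adjusted p = 0.0189). Limbal-type and conjunctival-type cells differed by -1.12 (SE 0.35), which was not called (edgeR adjusted p = 0.185). The limbal against corneal call was lost when all genes with at least 1 UMI were tested (edgeR adjusted p = 0.0731).

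Krt5, the type II partner, lay in a narrower range. It was at 5259.5 and 5784 CPM in corneal-type, 4247 and 4359 in limbal-type, and 5951 and 6593 in conjunctival-type cells. It fell by 0.37 on the log2 scale in limbal-type against corneal-type cells (SE 0.066, edgeR adjusted p = 0.00066), a call lost without the library block (0.16), and fell by 0.62 against conjunctival-type cells (edgeR adjusted p = 4.8e-06). Its rise of 0.25 in conjunctival-type against corneal-type cells (SE 0.066, edgeR adjusted p = 0.0104) was kept in only 6 of 13 alternatives. The 3 type I members summed to between 3.20 and 4.37 UMIs per Krt5 UMI in the cell classes of the libraries, including the cells that met both rules or none. Thus the ratio of these 3 members to Krt5 stayed within this range across cell classes while its make-up differed. Other keratins of either type are not counted in it. Split by cycle phase it left the range, for example at 4.75 and 5.21 in conjunctival-type cells called G1.

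Krt14, a basal type I keratin, was at 7803 and 6822 CPM in limbal-type cells and at 8424 and 5432 in conjunctival-type cells. Corneal-type cells differed between the libraries, at 6403 and 3398 CPM, a ratio of 1.88. Krt14 differed by 0.64 on the log2 scale between limbal-type and corneal-type cells (SE 0.21, edgeR adjusted p = 0.164) and by 0.59 between conjunctival-type and corneal-type cells (SE 0.21, edgeR adjusted p = 0.162), and neither was called. Both were called in 5 of 13 alternatives, among them DESeq2 (adjusted p = 0.0036 and 0.0061). Within library 1 alone, the limbal against corneal difference was 0.22, and within library 2 alone it was 0.98.

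**Figure D1:**
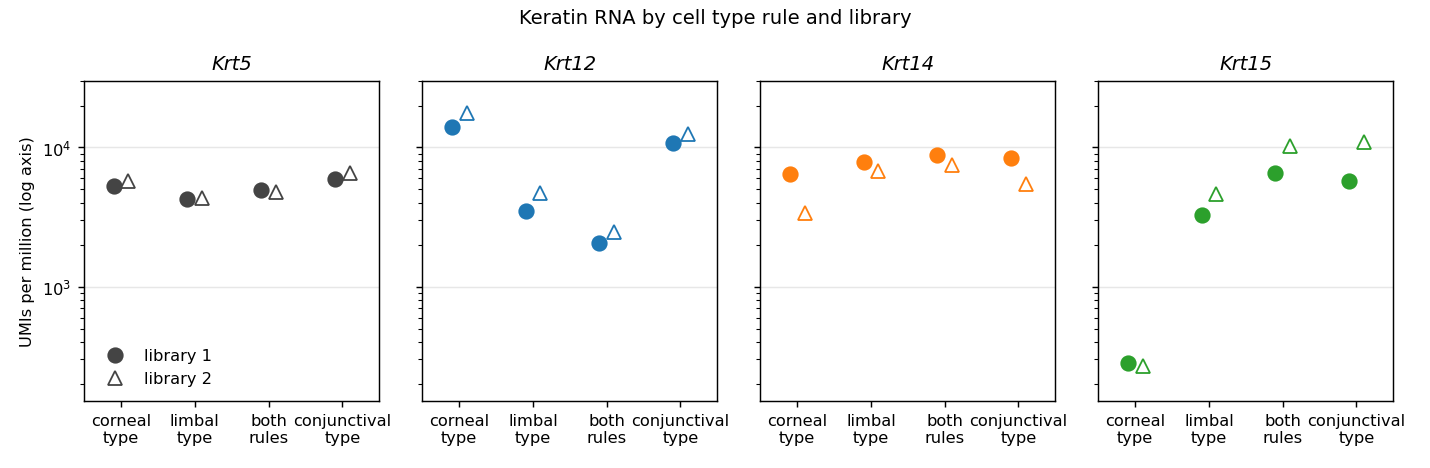
Level of each keratin in CPM (log axis) by cell type rule, with a filled circle for library 1 and an open triangle for library 2; "both rules" marks the cells that met the limbal and the conjunctival rule. Krt5 varied least, Krt12 was lowest and Krt15 highest in the cells with limbal or conjunctival markers or both, except that Krt12 of conjunctival-type cells was at 10771 and 12495.

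Single cells mostly had 1 leading type I keratin. Among cells with at least 10 UMIs of the 3 type I members, Krt12 held more than 50% of these UMIs in 78.95% of corneal-type cells of library 1 and 93.8% of library 2. The same share was 12.9% and 16.6% in limbal-type cells. Krt14 led, with the same share of more than 50%, in 55.5% and 46.4% of limbal-type cells, and Krt15 in 22.6% and 27.6%. Krt15 led in 3 of 2005 corneal-type cells of library 1 and 0 of 1588 of library 2. Krt14 led in 18.1% of corneal-type cells of library 1 against 3.72% of library 2. Cells with at least 5 UMIs of both Krt12 and Krt15 made up 9.78% and 8.88% of corneal-type and 23.0% and 22.1% of limbal-type cells.

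The low mean of Krt12 in limbal-type cells was not shared evenly. The median limbal-type cell held 3 Krt12 UMIs in library 1 and 1 in library 2, while 65.4% and 68.5% of these cells had under 10% Krt12 among type I UMIs. To compare shares at equal depth, each cell was thinned to 1900 UMIs, which left out 303 and 313 shallower cells. A Krt12 UMI was then found in 62.7% of limbal-type cells of library 1 (exact 95% interval 58.1 to 67.2%) and 56.8% of library 2 (52.7 to 60.7%), against 99.9% of corneal-type cells in both. Without thinning, the limbal shares were 80.2% and 72.9%. Krt15 was found in 20.3% and 18.4% of corneal-type cells at 1900 UMIs and in 33.9% and 30.9% without thinning.

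These shares were set beside immune-type cells and beside barcodes under 500 genes. Immune-type cells, which should lack keratins, numbered only 2 and 6, and 2 of 2 and 2 of 6 held a Krt12 UMI at median depths of 3308 and 2222 UMIs. Barcodes under 500 genes (254 and 221, median 758 and 669 UMIs) had Krt12 at 7655 and 12094 CPM and Krt15 at 438 and 1079 CPM, with a Krt15 UMI in 14.96% and 18.6% of them. The first group is small and the second was rich in Krt12, so neither sets a background level. Krt12 in the median limbal-type cell and Krt15 in most corneal-type cells are therefore not read, either as expression or as background. Whether those barcodes hold free RNA or damaged cells was not tested.

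**Figure D2:**
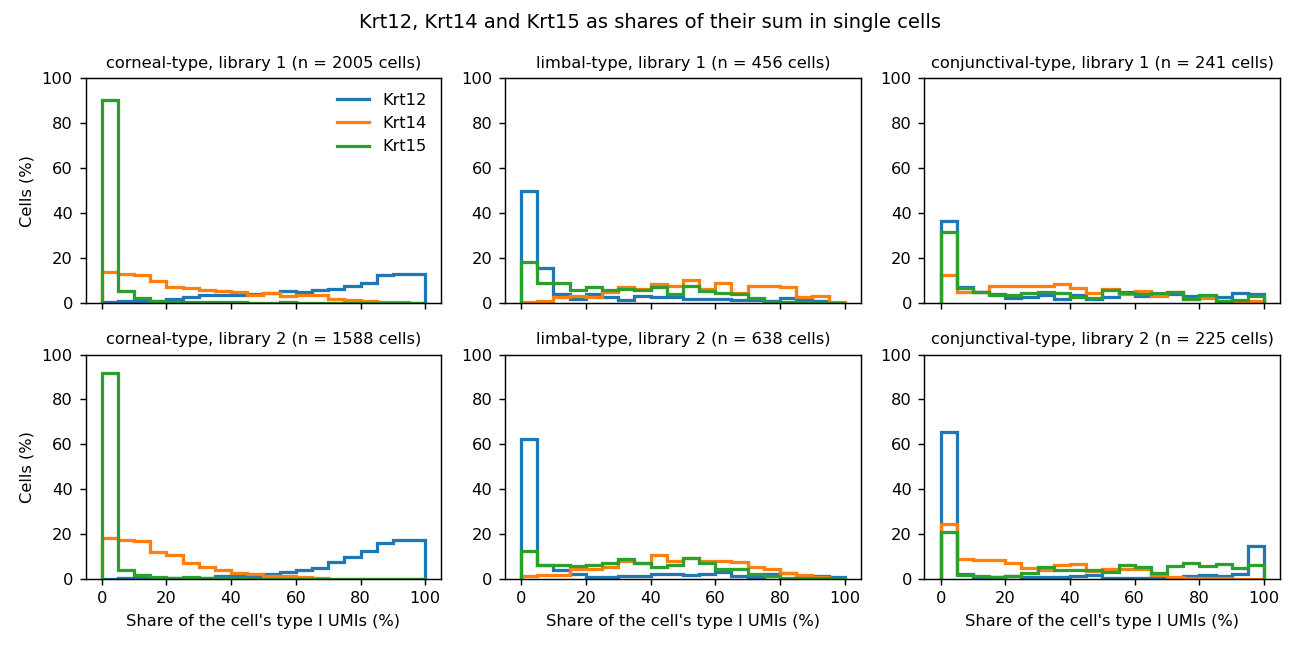
Distribution over cells of the share of Krt12, Krt14 and Krt15 in their summed UMIs (x axis, percent, in bins of 5 percentage points; y axis, percent of cells), for cells with at least 10 such UMIs, with library 1 above and library 2 below. Krt12 shares pile up at the high end in corneal-type cells and near 0 in limbal-type cells, and conjunctival-type cells show both ends.

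Conjunctival-type cells were a mixture of cells led by different type I keratins. Krt12 led in 80 and 53 cells, Krt15 in 77 and 118, and Krt14 in 69 and 39. In the Krt12-led cells, Krt12 was at 22048 and 36681 CPM, Aldh3a1 at 6287 and 8380 CPM and Krt7, a simple-epithelial keratin, at 4.31 and 16.1 CPM. In the Krt15-led cells, Krt15 was at 14536 and 20263 CPM, Aldh3a1 at 613 and 669.8 CPM and Krt7 at 267 and 669.8 CPM. For Aldh3a1, corneal-type cells stood at 7674 and 11263 CPM. Of the 3 genes of the rule, the Krt12-led cells held mostly Krt13 (1319 and 1594 CPM), with Krt4 at 106 and 55.1 CPM. Along the summed UMIs of the conjunctival rule, in cells with under 2 Gpha2 UMIs, Krt12 had no steady order. It was at 10162 and 10189.9 CPM with 2 UMIs, just below the threshold, at 12013 and 19216 with 3, just above it, and at 10309 and 10548 with 4 to 7. Krt15 was at 2729 and 4791 CPM with 2, 2256 and 3253 with 3, and 10559 and 15726 with 16 or more. The mean levels of conjunctival-type cells above are means over this mixture.

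Levels of Krt12 and Krt15 differed between bins of Gpha2 UMIs. In cells below the conjunctival threshold, Krt12 was at 13788 and 17793 CPM without a Gpha2 UMI, 10543 and 14271 with 1, 6396 and 9451 with 2, and 2133 and 3523 with 4 to 7. Krt15 was at 389 and 348 CPM without a Gpha2 UMI, 1285 and 1065 with 1, 2075 and 3042 with 2, and 3973 and 5191 with 4 to 7. The bins just below and just above the limbal threshold, with 1 and 2 UMIs of Gpha2, therefore had intermediate levels as sums. Among their cells with at least 10 type I UMIs, Krt12 led in 58.2% and 71.6% with 1 and in 30.2% and 44.6% with 2. These bins thus held both cells led by Krt12 and cells not led by it. Krt5 moved only from 5279 and 5793 CPM without Gpha2 to 4059.7 and 4209.8 with 4 to 7 UMIs. With 16 or more Gpha2 UMIs (15 and 46 cells) Krt12 was at 2759 and 2258 CPM.

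Along Aldh3a1, in cells that met neither other rule, Krt12 was at 7007 and 11858 CPM just below the corneal threshold (8 or 9 UMIs) and at 8509 and 10926 CPM just above it (10 or 11 UMIs). In library 2 it was lower again with 12 to 19 UMIs (10348 CPM). With 80 or more Aldh3a1 UMIs it was at 17541 and 19819 CPM and led in 95.4% and 99.0% of cells. Krt14 moved the other way in library 1, from 9841 CPM at 10 or 11 UMIs to 4084 CPM at 80 or more, and stayed between 3019 and 4077 CPM in library 2. Cells with more Aldh3a1 UMIs also had more UMIs in all (median 1920.0 and 1802 against 8663 and 7588).

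**Figure D3:**
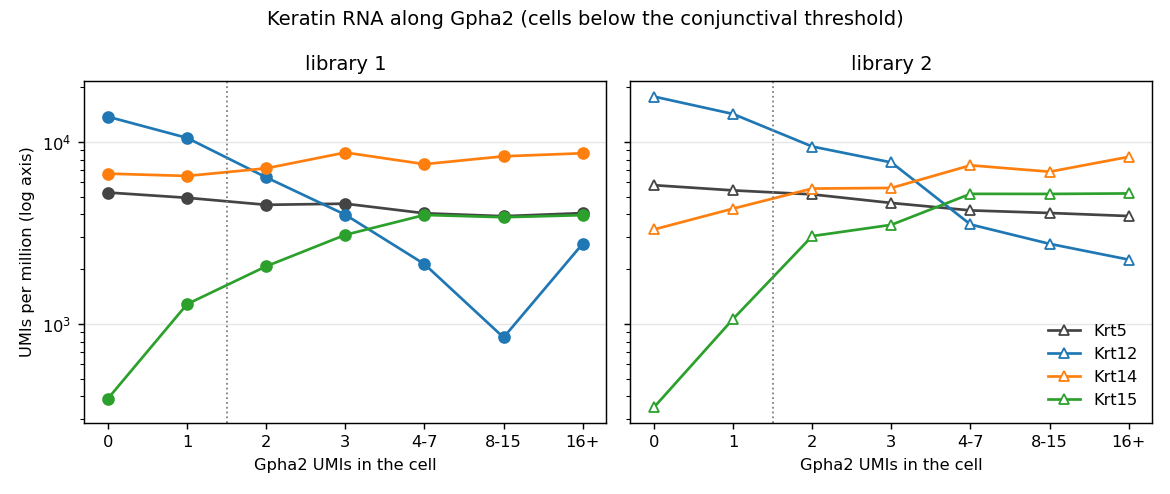
Level of each keratin in CPM (log axis) by the number of Gpha2 UMIs in the cell, for cells below the conjunctival threshold; the dotted line is the limbal threshold. In both libraries Krt12 falls and Krt15 climbs from 0 to 4-7 Gpha2 UMIs while Krt5 stays within 4059.7 to 5793; the highest bin of library 1 holds 15 cells.

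Within corneal-type cells, the keratins were compared between tertiles of surface differentiation RNA, the share of UMIs in 15 genes of upper epithelial layers. Krt12 was at 9079.7 and 12707 CPM in the lowest and 19239 and 22944 in the highest tertile. Krt14 was at 9311 and 4964 CPM in the lowest and 3587 and 2059 in the highest. Krt15 was at 468 and 565 CPM in the lowest and 129.9 and 126 in the highest. Both libraries had the same order of lowest and highest tertile for each of these 3. Krt12 rose by 0.99 on the log2 scale from the bottom to the top tertile (SE 0.063, edgeR adjusted p = 7.4e-07). Krt14 fell by 1.30 (SE 0.056, edgeR adjusted p = 8.9e-09) and Krt15 fell by 1.99 (SE 0.21, edgeR adjusted p = 0.0072). The median cell of every tertile held 0 Krt15 UMIs in both libraries, so the Krt15 sums rest on the cells that held any. Krt15 was at 679 and 2079 CPM in cells just above the corneal threshold (10 or 11 Aldh3a1 UMIs). With 80 or more Aldh3a1 UMIs it was at 139 and 137 CPM. The part of cells near the threshold in the Krt15 result was not tested. Krt5 rose by 0.24 (SE 0.059, edgeR adjusted p = 0.0271). All 4 members were called, against 7.26% of all genes tested (4.08% higher, 3.19% lower). Without the library block only Krt15 was called, and DESeq2 did not call Krt5 (adjusted p = 0.53). The immediate early genes moved with these tertiles in library 1 (6141 CPM lowest, 8701 highest) and not in library 2 (3351 and 3428 CPM), and their part in the result was not tested.

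Tertiles of basal adhesion RNA, 10 genes of the attachment of basal cells to the basement membrane, gave smaller differences. Krt12 was at 16272 and 19991 CPM in the lowest and 12178 and 16787 in the highest tertile, a fall by 0.38 on the log2 scale (SE 0.037, edgeR adjusted p = 2.7e-08). Krt14 was at 5659.9 and 2897 CPM in the lowest and 7484 and 3931 in the highest, a rise of 0.37 (SE 0.039, edgeR adjusted p = 2.3e-09). Krt5 fell by 0.14 (SE 0.037, edgeR adjusted p = 0.0114), and Krt15 differed by -1.18 (SE 0.34), which was not called (edgeR adjusted p = 0.254). The 3 calls compare with 10.1% of all genes tested (4.67% higher, 5.43% lower). Surface differentiation RNA was at 2905 and 3733 CPM in the lowest and 2199 and 3016 in the highest basal tertile. Interferon-response RNA was at 138 and 402 CPM in the lowest and 163 and 619 in the highest. The part of these 2 lists in the result was not tested. None of the 4 was called without the library block, a fit that called 0 of all genes, and Krt5 also lost its call with DESeq2, library sizes alone and thinning.

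The cell cycle was compared within each cell type, with phases called from S and G2/M gene scores. Cells with neither score positive were called G1, a residual label that does not show G1 phase of a cycling cell. Most of these sorted cells were called G2/M, and the G1-called cells were few and shallower (corneal-type 79 and 63 cells, median 3512 and 4026 UMIs, against 5992 and 6585 in G2/M). In corneal-type cells Krt12 was at 24028 and 33667 CPM in G1, 14814 and 17469.6 in S, and 13649.8 and 17208 in G2/M. In G1 against S and G2/M, Krt12 rose by 0.91 on the log2 scale (SE 0.12, edgeR adjusted p = 7.7e-06) and Krt5 rose by 0.43 (SE 0.11, edgeR adjusted p = 0.012). Krt14 fell by 0.48 (SE 0.12, edgeR adjusted p = 0.0115), from 7988 and 3232 CPM in S to 4905 and 2284 in G1. Krt15 differed by -0.43 (SE 0.17, edgeR adjusted p = 0.124). Of all genes tested 9.76% were called (4.64% higher, 5.13% lower). Without the library block only Krt12 was called, and Krt14 missed the threshold after thinning (edgeR adjusted p = 0.056).

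The G1-called corneal-type cells also had more surface differentiation RNA, at 5035 and 6717 CPM against 2507 and 3135 in G2/M-called cells. Their interferon-response RNA was at 247 and 889 CPM against 158 and 497 in G2/M-called cells, and its part was not tested. The direction of Krt12, Krt5 and Krt14 in G1 was the direction they had in the highest surface tertile, and the part of surface RNA in the G1 result was not tested.

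In conjunctival-type cells, G1 against S and G2/M gave a rise of 1.40 on the log2 scale for Krt12 (SE 0.12, edgeR adjusted p = 3.1e-10), 0.95 for Krt15 (SE 0.11, edgeR adjusted p = 9.1e-08) and 0.60 for Krt5 (SE 0.11, edgeR adjusted p = 0.0001). Krt12 was at 19787 and 26024 CPM in G1 against 9659.5 and 8032 in G2/M, and Krt15 at 9146 and 15082 against 5523 and 9715. Krt14 differed by -0.34 (SE 0.32, edgeR adjusted p = 0.496). Of all genes tested 37.1% were called (18.9% higher, 18.2% lower), so that a call was common in this comparison. Without the library block Krt15 was not called (edgeR adjusted p = 0.11). The G1 cells numbered 29 and 64. In library 2, 52.8% of the Krt12-led conjunctival-type cells were called G1, against 28.8% of the Krt15-led ones, so the mixture moved with the phase, and its part was not tested. G1-called conjunctival-type cells also had more surface differentiation RNA (7492 and 10575 CPM against 2357 and 2195 in G2/M) and more interferon-response RNA (478 and 1245 CPM against 86.7 and 542), and the part of these was not tested.

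In limbal-type cells the differences were small. In G1, with 22 and 55 cells, Krt15 rose by 0.35 on the log2 scale (SE 0.071, edgeR adjusted p = 8.4e-05) and Krt14 by 0.22 (SE 0.06003, edgeR adjusted p = 0.0096), where 5.76% of all genes were called (2.37% higher, 3.39% lower). Krt15 was at 3322 and 5454 CPM in G1, 2599 and 3714 in S, and 3395 and 4744 in G2/M. Fitted on library 1 alone, the Krt15 difference was -0.0019, against 0.32 in library 2. For Krt14 these values were 0.018 and 0.087, both below the joint 0.22, and Krt14 was called in only 1 of 5 alternatives. Neither gene was called by DESeq2. In G2/M against S, Krt15 rose by 0.32 (SE 0.072, edgeR adjusted p = 0.00056) and Krt14 fell by 0.21 (SE 0.064, edgeR adjusted p = 0.0227), where 7.08% of all genes were called (3.4% higher, 3.67% lower). DESeq2 called neither. Krt12 and Krt5 were called in neither limbal comparison, although both were called in G2/M against S among cells with at least 1000 genes (edgeR adjusted p = 2.4e-08 and 0.017). In corneal-type and conjunctival-type cells, no member was called in G2/M against S, where 12.2% (4.96% higher, 7.2% lower) and 1.97% (1.16% and 0.816%) of all genes were called. Their unadjusted edgeR p was under 0.05 for Krt12 in conjunctival-type cells only (0.019).

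Whether the cycle differences differed between cell types was tested directly, over 24 member contrasts. Only 1 was called: the G1 difference of Krt5 was lower in limbal-type than in conjunctival-type cells by 0.55 on the log2 scale (SE 0.13, edgeR adjusted p = 0.0041), where 4.82% of all genes were called. For Krt12 the same contrast gave -1.09 (SE 0.29, edgeR adjusted p = 0.0732). The G1 difference of Krt15 in conjunctival-type against corneal-type cells was 1.46 higher (SE 0.38) but not called (edgeR adjusted p = 0.104), where 2.2% of all genes were called. The limbal-type against corneal-type contrast of G1 called 0.103% of all genes, and the 3 contrasts of G2/M called 0, 0.0129 and 0%. For the other contrasts a difference between cell types was not shown.

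**Figure D4:**
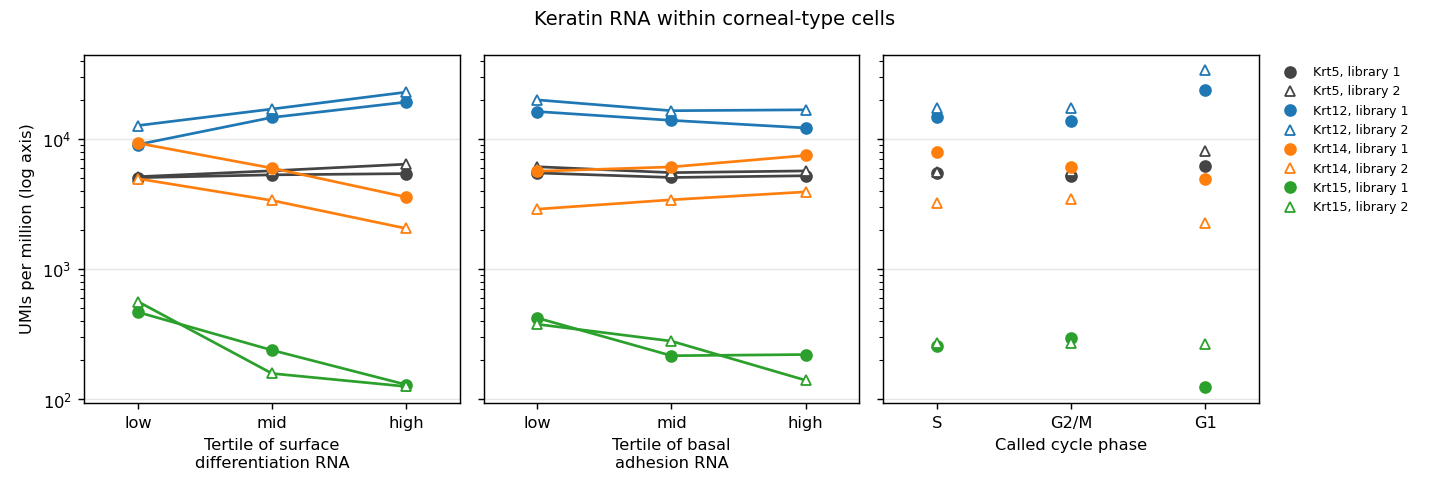
Level of each keratin in CPM (log axis) in corneal-type cells by tertile of surface differentiation RNA, by tertile of basal adhesion RNA and by called phase, with filled circles for library 1 and open triangles for library 2. Krt12 is higher and Krt14 and Krt15 lower toward the high surface tertile in both libraries, and Krt12 is highest in G1.

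The other keratins were counted from a list of 20 genes, of which 12 were tested by cell type. In limbal-type against corneal-type cells 4 rose and 0 fell, with a median log2 difference of 0.80 against 0.0064 over all genes tested. Of all genes, 11% rose and 9.41% fell. Krt7 rose by 6.13 on the log2 scale (edgeR adjusted p = 8.5e-08), from 2.11 and 2.34 CPM to 102 and 227 CPM. Krt8 rose by 2.50 and Krt18, its type I partner, by 1.24. In conjunctival-type against corneal-type cells 10 rose and 0 fell, among them Krt7 (6.90), Krt80 (4.21), Krt8 (4.03) and Krt6b (3.95). The median was 3.78 against -0.0020 over all genes, of which 15.2% rose and 10.3% fell. Limbal-type against conjunctival-type cells had 8 lower and 0 higher, against 12.2% and 9.69% of all genes. Krt78, at a mean of only 5.40 CPM and named after its values were seen, differed most (-5.61, edgeR adjusted p = 2.5e-05), and Krt6b, a keratin of activated epithelium, fell by 5.36. Krt17, a stress-associated type I keratin, was at 287 and 92.9 CPM in corneal-type and 1328 and 1074 in limbal-type cells, a log2 difference of 2.80 that was not called (edgeR adjusted p = 0.0951).

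Within corneal-type cells, Krt17 fell by 2.61 on the log2 scale from the lowest to the highest surface tertile (edgeR adjusted p = 1.4e-07), the direction of Krt14. Krt16, a type I keratin of stressed epithelium, rose by 2.12 in G1 against S and G2/M (edgeR adjusted p = 2.3e-13). It also fell by 1.70 in G2/M against S (edgeR adjusted p = 3.4e-12). Krt16 differed between the libraries in corneal-type cells, at 269 CPM in library 1 and 81.9 in library 2, as Krt14 did. Across corneal-type cells at 1900 UMIs, the rank correlation of Krt14 with Krt17 was 0.43 and 0.29, with a mean of 0.446 and 0.174 Krt17 UMIs per cell and shared transcript stretches.

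Genes of keratin attachment (18 genes of desmosomes, which join keratin filaments of neighbouring cells, and of hemidesmosomes, which join them to the basement membrane) were counted next. In limbal-type against corneal-type cells 4 rose and 8 fell of 18, where 11% of all genes rose and 9.41% fell. The desmosome-linked Evpl fell by 1.17 on the log2 scale and Ppl by 0.78, while the hemidesmosome genes Cd151 and Dst rose by 0.38 and 0.26. In conjunctival-type against corneal-type cells 11 rose and 5 fell, where 15.2% of all genes rose and 10.3% fell. Dsc2 rose by 1.49, Pkp1 by 1.27 and Ppl by 1.23, while Col17a1 fell by 1.44 and Itgb4 by 1.34. The highest surface tertile of corneal-type cells had Evpl 1.0018 and Ppl 0.82 higher and Itgb4 0.39 lower. There 7 were up and 2 down of 17 tested, against 4.08% and 3.19% of all genes. In G1 against S and G2/M of corneal-type cells 11 rose and 0 fell, led by Ppl (1.41). Of all genes, 4.64% rose and 5.13% fell.

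Of 16 regulators of keratin genes, 15 were tested. Klf4, a factor of epithelial differentiation, fell by 1.36 on the log2 scale in limbal-type against corneal-type cells (edgeR adjusted p = 1.2e-08), and Pax6, the eye regulator, fell by 0.32 (edgeR adjusted p = 0.0063). Klf5 and Foxc1 rose by 0.79 and 0.78. In total 4 rose and 4 fell, against 11% and 9.41% of all genes. In conjunctival-type against corneal-type cells 7 rose, among them Elf3 (1.79) and Klf5 (1.27). The 2 that fell were Trp63, the basal cell factor, by 0.56 and Klf4 by 0.32. Of all genes, 15.2% rose and 10.3% fell in that comparison. Elf3 and Klf4 also rose in the highest surface tertile of corneal-type cells (1.09 and 0.53) and in their G1 cells (1.76 and 0.65), as Krt12 did.

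The genes most like each member were ranked by Pearson correlation over 24 sums of library, class and phase, which share libraries and so are a description. The ranking covered genes averaging at least 50 CPM and left out the members and the genes of the cell type rule. Krt12 was closest to Upk3bl (0.95), Aqp5 (0.94), a water channel, and Slurp1 (0.94). Upk3bl and Slurp1 are among the 15 surface differentiation genes, so this is not separate from the result by surface tertile. Krt15 was closest to Ly6e (0.93), Barx2 (0.91) and Krt7 (0.91). Krt14 was closest to Fabp5 (0.91), a fatty acid carrier, Tpi1 (0.88) and Ppib (0.87). Krt5 was closest to Lypd3, Mgst3 and Perp (each 0.90, from 0.899 to 0.896). Among the members, Krt12 correlated with Krt5 at 0.74, with Krt14 at -0.60 and with Krt15 at -0.43.

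Across single cells at 1900 UMIs, the rank correlation of Krt12 with Krt15 was -0.65 in library 1 (2884 cells) and -0.77 in library 2 (2688 cells). Within limbal-type cells it was -0.47 and -0.56, and within conjunctival-type cells -0.64 and -0.63. Krt12 with Krt14 gave -0.52 and -0.40 within corneal-type cells and -0.13 and -0.23 within limbal-type cells. Krt5 correlated with Krt12 at 0.18 and 0.37 in corneal-type and at 0.47 and 0.51 in conjunctival-type cells. UMIs of a cell at fixed depth share 1 total, and cells are not replicates.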

How the data were processed

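Single-cell RNA was measured in 1 group of 2 libraries. The deposited matrix holds whole-number UMI counts, which the authors made with Cell Ranger 3.1.0, per the submitters' processing notes, which also name Seurat 5.0.0 and GRCm38 (mm10). Annotation, cell calling and any depth equalisation: not given in the sources used here.

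The 4 genes, the lists and the cell type rule were chosen with earlier results of these data known. Counts were summed per library and class (at least 20 cells) and tested with edgeR 4.0.16 (quasi-likelihood, robust, TMM, filterByExpr; R 4.3.3), with library as a block. These fits have 6 sums and 2 residual degrees of freedom. Adjusted p-values are Benjamini-Hochberg values over all genes tested, threshold 0.05, for 11 contrasts; genes of the rule or list that made a split gave no result. The test of cycle differences between cell types (6 contrasts, 8 residual degrees of freedom) and 3 alternatives on the cell type rule were added after seeing the data, and the limbal against conjunctival pair of that test was added after the other 2 pairs had been seen. Phases came from scanpy 1.11.5 (42 S and 52 G2/M genes). No doublet caller was run. Genes named from the lists are, per list and direction, up to 4 called genes ranked by log2 difference, of 1 sign in each library alone and averaging 20 CPM or more. Krt17 and Krt78 in the cell type comparison and the library values of Krt16 were named after their values were seen. The fits were tested on simulated data: of genes given a log2 change of 1, the share recovered was 54.4% in the limbal against corneal fit (10656 genes), 63.6% in basal and 41.1% in surface tertiles (10611 and 10609 genes), and 62.6%, 43.8% and 27.1% in G2/M against S of corneal-type, limbal-type and conjunctival-type cells (9882, 6830 and 4571 genes), with 0 to 6 unchanged genes called per fit. Intervals cover counting error only. Most alternatives are named in the closing section. A mitochondrial share under 10% was another. Cells of both rules were also counted as limbal-type. Conjunctival-type cells were also limited to those with at least 3 UMIs of Krt4 and Krt13 together. These changes of the cell type rule were made after seeing the data.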

Additional observations from a re-analysis of the deposited data

Results flagged for a closer look

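The G1 against S and G2/M difference of Krt5 was lower in limbal-type than in conjunctival-type cells by the test of that difference, at -0.55 on the log2 scale (SE 0.13, edgeR adjusted p = 0.0041). It was the only 1 of 24 such member tests that was called, and 4 of the 24 had an unadjusted p under 0.05. Krt5 stood at 4289 and 4542 CPM in limbal-type G1 cells and at 8129 and 8433 CPM in conjunctival-type G1 cells. This contrast was added after the other cell type pairs had been seen.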

How the results depend on the processing

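Each library is 1 sample, so the fits have 2 residual degrees of freedom and lean on the spread estimated over all genes. The levels of Krt12 and Krt15 in barcodes under 500 genes limit what low levels of both can show. Krt12 in limbal-type against corneal-type cells, Krt15 in conjunctival-type against corneal-type cells and Krt5 in limbal-type against conjunctival-type cells were called in 13 of 13 tested alternatives. Krt15 between surface tertiles was called in 6 of 6, although the median cell of each tertile held 0 Krt15 UMIs. Over all tested alternatives of the 4 members, 285 of 344 results kept their direction and side of the threshold, 39 lost a call, 17 gained one and 3 turned. The cause was not tested for any change below.

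Without the replicate block (library as a term), genes called went from 2178 to 671 in limbal-type against corneal-type cells, from 2728 to 1126 in conjunctival-type against corneal-type cells and from 2338 to 853 in limbal-type against conjunctival-type cells. In G2/M against S they went from 1186 to 140 (corneal-type), 472 to 80 (limbal-type) and 87 to 10 (conjunctival-type), and in G1 from 952 to 461 (corneal-type) and 384 to 99 (limbal-type). In basal tertiles edgeR called 0 against 1071 with the block (831 genes had an unadjusted p under 0.05, and DESeq2 with the block called 155), and in surface tertiles 18 against 768. Without the block, 1 member was called in conjunctival-type against corneal-type cells, in corneal-type G1 and in surface tertiles, and 0 in both limbal-type cycle comparisons and in basal tertiles. Krt5 lost its call at -0.37 (limbal over corneal) and 0.25 (conjunctival over corneal), and Krt12 at -0.39 (conjunctival over corneal). The pairing comes from the library, which the sums of its separate cell classes share.

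With DESeq2, genes called were 987, 1363 and 1148 in the 3 cell type comparisons in the order above, 148, 42 and 6 in G2/M against S and 614, 67 and 727 in G1 of corneal-type, limbal-type and conjunctival-type cells (952, 384 and 1635 with edgeR), 155 in basal and 183 in surface tertiles. With cells thinned to 1900 UMIs, edgeR called 1606 genes in conjunctival-type against corneal-type cells and 1126 in limbal-type against conjunctival-type cells. It called 565, 169 and 16 in G2/M against S, 377, 218 and 555 in G1, 203 in basal and 261 in surface tertiles. For the cell type comparisons, thinned cells were assigned anew with lower thresholds. These were 2 UMIs of Krt4, Krt13 and Krt19 together, 1 of Gpha2 and 4 of Aldh3a1. Depth and cell classes both changed there, whereas the thinned cycle and tertile fits kept the original cell types. In limbal-type cells DESeq2 called 0 members in either cycle comparison (0.31 and -0.21 for Krt15 and Krt14 in G2/M), thinning left 1 in each, and library sizes alone left 1 in G1. With at least 1000 genes per cell, 4 members and 728 genes were called in limbal-type G2/M against S. The limbal-type G1 comparison was not run at that minimum because 1 library had too few cells.

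Krt14 was called in limbal-type against corneal-type cells by DESeq2 (0.63), with library sizes alone (0.65), with all genes of at least 1 UMI (0.59), without the 5% of cells with most UMIs (0.66) and with thinning (0.69). In conjunctival-type against corneal-type cells the same settings gave 0.59, 0.53, 0.54, 0.63 and 0.71, all called. Krt5 in conjunctival-type against corneal-type cells lost its call with DESeq2 (0.24), library sizes alone (0.18), upper-quartile scaling (0.17), without the 5% of cells with most UMIs (0.16) and with thinning (0.076). Krt15 in limbal-type against corneal-type cells lost it with all genes of at least 1 UMI (3.72). Krt15 in limbal-type against conjunctival-type cells was called by DESeq2 (-1.13), with thinning (-1.30) and with stricter thresholds (-1.25), where Krt12 in conjunctival-type against corneal-type cells lost its call (-0.50). Cells of both rules were also counted as conjunctival-type, a choice made after seeing the data. Krt5 (0.022) and Krt12 (-1.13) then lost their calls in conjunctival-type against corneal-type cells, and Krt12 (-0.86) in limbal-type against conjunctival-type cells. The number of all genes called in that setting is not given here, so these losses are not read as particular to the members. Krt14 in limbal-type against conjunctival-type cells, not called, turned to -0.080 there and to -0.019 with thinning. Krt12 in limbal-type G1, not called, turned to -0.22 with thinning.

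In each library alone, with no test, the log2 differences of limbal-type against corneal-type cells were -2.09 to -1.94 for Krt12, -0.44 to -0.38 for Krt5 and 0.22 to 0.98 for Krt14. For conjunctival-type against corneal-type cells they were -0.48 to -0.40 for Krt12, 0.17 to 0.22 for Krt5 and 4.32 to 5.35 for Krt15. For limbal-type against conjunctival-type cells they were -1.70 to -1.46 for Krt12 and -0.18 to 0.27 for Krt14. In limbal-type G1, Krt15 was -0.0019 to 0.32 and Krt14 was 0.018 to 0.087. Without thinning, the mean share of cells with a UMI was 96.4% for Krt14 and 32.4% for Krt15 in corneal-type cells. It was 76.5% for Krt12, 99.8% for Krt14 and 92.6% for Krt15 in limbal-type cells, and 99.8% for Krt5, 80.2% for Krt12 and 88.4% for Krt15 in conjunctival-type cells.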

Other observations

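Cells that met both the limbal and the conjunctival rule entered no test. Krt15 was at 6605 and 10276 CPM in them, Krt12 at 2051 and 2459 CPM, Krt14 at 8853 and 7459 CPM and Krt5 at 4938 and 4786 CPM. Every one of these 128 and 268 cells held a Krt15 UMI. Krt14 led the type I keratins in 50.8% of them in library 1 and Krt15 in 51.9% in library 2, while Krt12 led in 2.34% and 3.36%. Krt7 was at 283 and 529 CPM in these cells, the highest of the cell classes in each library.

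Cells that met no rule were shallow, with a median of 2098 and 1507 UMIs. Krt14 was at 9817 and 5419.8 CPM in them, Krt15 at 3252 and 4328 CPM and Krt12 at 3761 and 4992 CPM. Krt12 led in 36.1% and 45.7% of those with at least 10 type I UMIs.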
